A study of Homo sapiens with 2 samples.

Results

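The transcripts of a pair of transfected plasmids were followed in the ribosome profiling table: the fluorescent reporter mcherry-t2a-egfp and the synthetase TetRS. They are the 2 rows whose identifiers name those sequences, among 61554 rows in all, and they were set against the 19994 protein-coding genes. The study transfected wild-type HEK293T cells, an established human embryonic kidney line, and sequenced the RNA fragments that ribosomes protect. Each group had 1 library.

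Both cultures received 1 plasmid that codes for TetRS, which the labels write as chPylRSIPYE behind the prefix pCMV-Nes, and both were kept with TetBu, a name the labels do not explain. The same plasmid holds, in the labels' notation, 12 copies of an element written as CM15CGA behind U6, a promoter of RNA polymerase III. The culture with the reporter also received the plasmid of mCherry, T2A and EGFP, whose name marks 1 position of EGFP as TCG, a serine codon. Cells were harvested after 30 h of expression and 1 min in 0.1 mg/mL cycloheximide. The cassettes, TetRS and TetBu are thus shared, and the reporter plasmid is the labelled difference. Transfection was transient in a dish of 15 cm, so each library averages over cells that took up what their dish was given and cells that did not.

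Pyrrolysyl-tRNA synthetases of methanogenic archaea charge a tRNA that human synthetases leave alone, which is why engineered forms are used to bring noncanonical amino acids into proteins of human cells. Such a system needs the synthetase, its tRNA and a target message with the codon that the tRNA reads. A codon of the sense repertoire, such as TCG for serine, is also read by the cell's own tRNAs. In a T2A reporter, 1 message gives 2 separate proteins, because the ribosome skips a peptide bond at the T2A sequence and goes on. Where the counted fragments come from ribosomes, they follow the number of ribosomes on a message, which depends both on the amount of mRNA and on its translation. No matched RNA library was used here, so these parts cannot be told apart. In a transfected dish, fewer transfected cells and less plasmid RNA per cell cannot be told apart either.

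The libraries held 2519301 counts with the reporter and 3151403 without it, of which protein-coding genes took 13.7% and 9.77%. Intervals are exact Clopper-Pearson intervals at 95% and cover counting error only, since reads copied by PCR are not independent molecules. With 1 library per group there is no test across replicates and no p-value, and each difference is one between these libraries. The cell type of the labels was checked with 10 genes that HEK293 cells express, all of which had counts in both libraries (389 in total with the reporter, 283 without it). Of all 19994 coding genes, 12629 and 12601 had a count, so detection alone says little about cell type. VIM, an intermediate filament gene, led the 10 with 148 and 131 counts, whereas PAX2, of the embryonic kidney, had 2 and 4. EYA1 (4 and 1), KRT8 (3 and 4), INA (3 and 7) and LHX1 (5 and 7) were also low. Markers of leukocytes, fibroblasts, erythroid cells and serum, keratinocytes and hepatocytes summed to 34 counts with the reporter and 129 without it. Of these 22 markers, PTPRC, HBA1, HBA2, KRT1, KRT14, TTR and APOA1 were at 0 in both libraries. Others had counts, mostly without the reporter: CD74 had 9 and 24, COL1A2 had 4 and 21, CORO1A had 1 and 14, ALB had 0 and 13, and SERPINA1 had 0 and 8. The part of such cells in the results was not tested.

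The reporter was far above every endogenous coding gene in the library that received it. It had 271843 counts there, on a listed length of 1505 bases, and a deposited RPKM of 62859.8 (counts per kilobase of listed length and per 1000000 of a library size). No coding gene of the 19994 had a higher level. MT-CO2, the mitochondrially encoded subunit 2 of cytochrome c oxidase (GRCh38, mitochondrial genome, 7586 to 8269), was next among coding genes with 7535 counts and 3834 RPKM. The reporter exceeded it 16.4 times. Nuclear-encoded coding genes were then taken without those whose locus holds a small RNA gene, since such a gene can share reads with its host. The classes screened were miRNA, snoRNA, scaRNA, snRNA, ribozyme and miscellaneous RNA. Nuclear tRNA genes were not screened. The highest of the 16976 coding genes that remained was H4C2, a histone H4 gene, with 505 counts and 453 RPKM. The reporter exceeded it 139 times.

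The range of endogenous genes shows how far out that value lies. In the same library 7365 coding genes, or 36.8%, had no count. The median of the 12629 with a count was 0.589 RPKM, the 99th percentile of all coding genes was 19.2 and the level passed by 1 coding gene in 1000 was 227. Only 44 coding genes reached 100 RPKM and 6 reached 1000, and these 6 were all mitochondrially encoded. The reporter was 3269 times the 99th percentile. Its RPKM was 1.46 times the sum over all coding genes together, which was 42928.

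**Figure D1:**
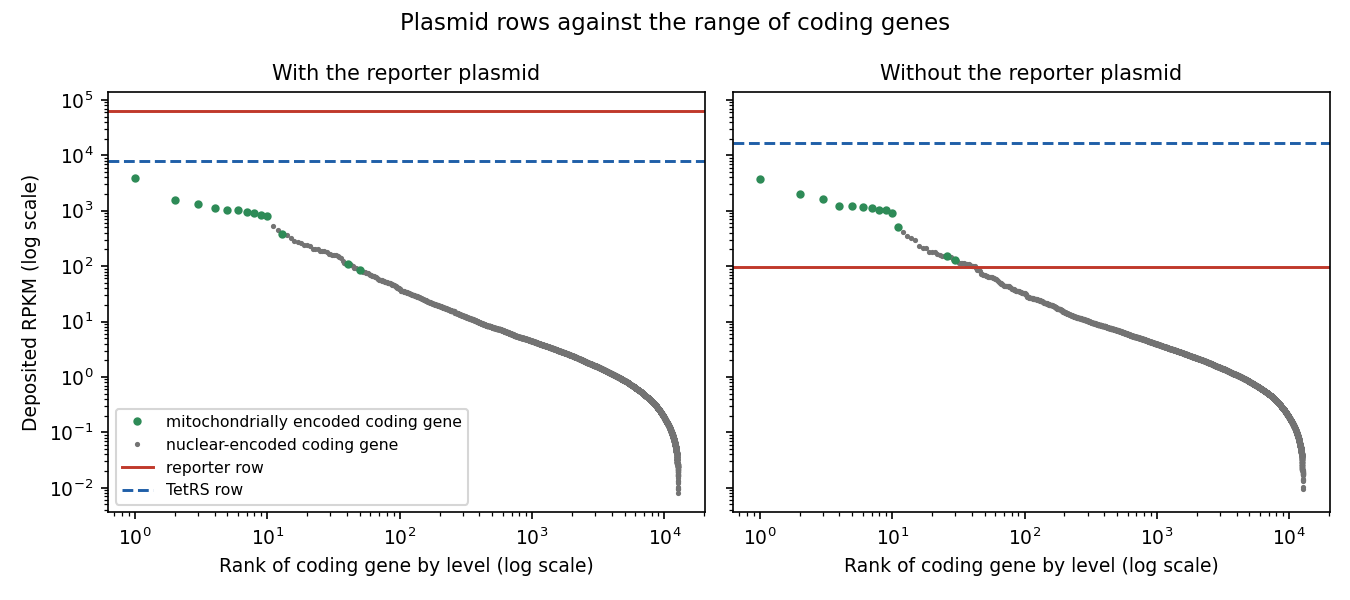
Deposited RPKM of coding genes with a count, ordered by rank in each library (both axes on log scales), with the plasmid rows as horizontal lines. With the reporter, both lines lie above the highest coding gene at 3834 RPKM; without it, TetRS lies above all coding genes and the reporter line, at 96.0 RPKM, crosses the curve below 42 of them.

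By raw counts, which leave length aside, the reporter held 41.9% of all coding and plasmid counts with the reporter (41.8 to 42.0%). Divided by listed length, its share of that pool was 55.2%. The counts of the 3196 most counted coding genes had to be added up to reach the reporter's. Per codon of listed length it had 542 counts. Its length is not a multiple of 3, so the row is not exactly 1 reading frame, and counts were not resolved to mCherry, T2A or EGFP in the table. The occupancy at the TCG codon was therefore not measured here.

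Above the reporter by RPKM stood 10 rows of noncoding RNA: 3 mitochondrial tRNA genes, 3 miRNA genes, 1 mitochondrial rRNA gene, 1 lncRNA, 1 snRNA and 1 row of miscellaneous RNA. A short row, such as that of a tRNA or miRNA gene, gains a high RPKM from few fragments. By counts, which leave length aside, only 1 row of any kind stood above the reporter.

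TetRS was likewise above every coding gene, in both libraries. Its count was 30286 with the reporter and 59723 without it, on a listed length of 1308 bases, which is 436 codons. Its deposited RPKM was 8058 and 16526. The library without the reporter was thus the higher, and these counts, unlike those of the reporter, were large in both. MT-CO2 was the closest coding gene each time, at 3834 and 3719 RPKM, so that TetRS stood 2.10 and 4.44 times above it. MT-ND5, a subunit of complex I, followed at 1542 and 2027 RPKM (GRCh38, mitochondrial genome, 12337 to 14148). MT-ND4 came after it with the reporter at 1322 RPKM, and MT-CYB without it at 1641 RPKM. The mitochondrial messages are read by mitochondrial ribosomes, which cycloheximide does not block, so their footprints are not fully alike with those of the plasmid rows.

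Against nuclear-encoded genes, whose messages are read by the same cytosolic ribosomes, the distance was wider. Among those whose locus holds no small RNA gene, TetRS exceeded the highest, H4C2, 17.8 times with the reporter. Without it the highest was HES7, a transcriptional repressor gene, at 347 RPKM, which TetRS exceeded 47.6 times. Loci were not screened for nuclear tRNA genes, so whether the level of HES7 is that of its message was not tested. The level passed by 1 nuclear-encoded gene in 1000 was 158 and 113 RPKM. TetRS came to 27.8% of the summed RPKM of all 19981 nuclear-encoded coding genes with the reporter, and to 66.7% without it.

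The listed lengths of nuclear genes appear to cover more than coding sequence, and this raises the plasmid rows in every comparison per length with nuclear-encoded genes, though not in those with mitochondrially encoded genes such as MT-CO2. Coding genes had a median listed length of 4388 bases and cytosolic ribosomal proteins one of 2936, far beyond the small proteins these encode. Only 35.3% of coding lengths were multiples of 3, near what any set of lengths would give. Without division by length, both plasmid rows still had more counts than any coding gene in the libraries where their plasmid was given. With the listed lengths of nuclear-encoded genes divided by 3, no coding gene passed them either. That setting brought the reporter's share of length-scaled coding and plasmid occupancy to 36.6% and that of TetRS without the reporter to 15.5%.

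TetRS belongs to the aminoacyl-tRNA synthetases, the enzymes that load each tRNA with its amino acid, and its level was set against the cell's own. The 20 cytosolic synthetase genes all had counts in both libraries, from CARS1, the cysteinyl enzyme, at 1.04 RPKM to SARS1, the seryl enzyme, at 10.2 RPKM with the reporter. Without it they ran from HARS1, the histidyl enzyme, at 1.05 RPKM to SARS1 at 7.05 RPKM. SARS1 charges the tRNAs that read TCG as serine (GRCh38, chromosome 1, 109213918 to 109238182) and had 113 and 75 counts. Per listed length it was the highest of the cytosolic synthetases in both libraries. By counts GARS1 (144 and 122), AARS1 (133 and 90) and IARS1 (123 and 119) were above it in both, on longer listed lengths. LARS1 (82) and TARS1 (81) were also above it by counts without the reporter. Per listed length, TetRS stood 789 times above SARS1 with the reporter and 2343 times without it.

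All cytosolic synthetases together came to 1468 counts with the reporter and to 1168 without it. TetRS alone had 20.6 times as many counts with the reporter (19.6 to 21.8) and 51.1 times as many without it (48.3 to 54.2). Per listed length, TetRS was 102 and 261 times the sum of these 20 genes. The 17 mitochondrial synthetase genes had 395 and 368 counts. IARS2, the isoleucyl enzyme, was the highest of them with the reporter at 8.25 RPKM and YARS2, the tyrosyl enzyme, without it at 5.90 RPKM. VARS2, the valyl enzyme, was the lowest, with 1 count and 0. The multisynthetase scaffold genes AIMP1, AIMP2 and EEF1E1 had 102 and 66 counts in total.

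No endogenous cytosolic synthetase with enough counts to be measured had a ratio between the libraries as low as that of TetRS, -1.11 on the log2 scale. Only 6 of all 1060 measured coding genes, or 0.566%, had a lower one, so this says nothing particular about synthetases. Of the 13 cytosolic synthetase genes with 100 or more counts over both libraries, the log2 ratio between the libraries (reporter over no reporter, counts scaled by TMM) ran from -0.41 for TARS1 to 1.21 for EPRS1, with a median of 0.18. The median over all 1060 coding genes of that depth was 0.11. EPRS1, which charges glutamate and proline, was the only one counted as higher, that is at least 2-fold with an interval that excludes 0, with 81 counts against 32, and none was counted as lower. Over all 1060 coding genes the shares were 2.83% and 0.566%, so that 1 and 0 of 13 say nothing particular about this list. SARS1 was at 0.46 (0.03 to 0.90).

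**Figure D2:**
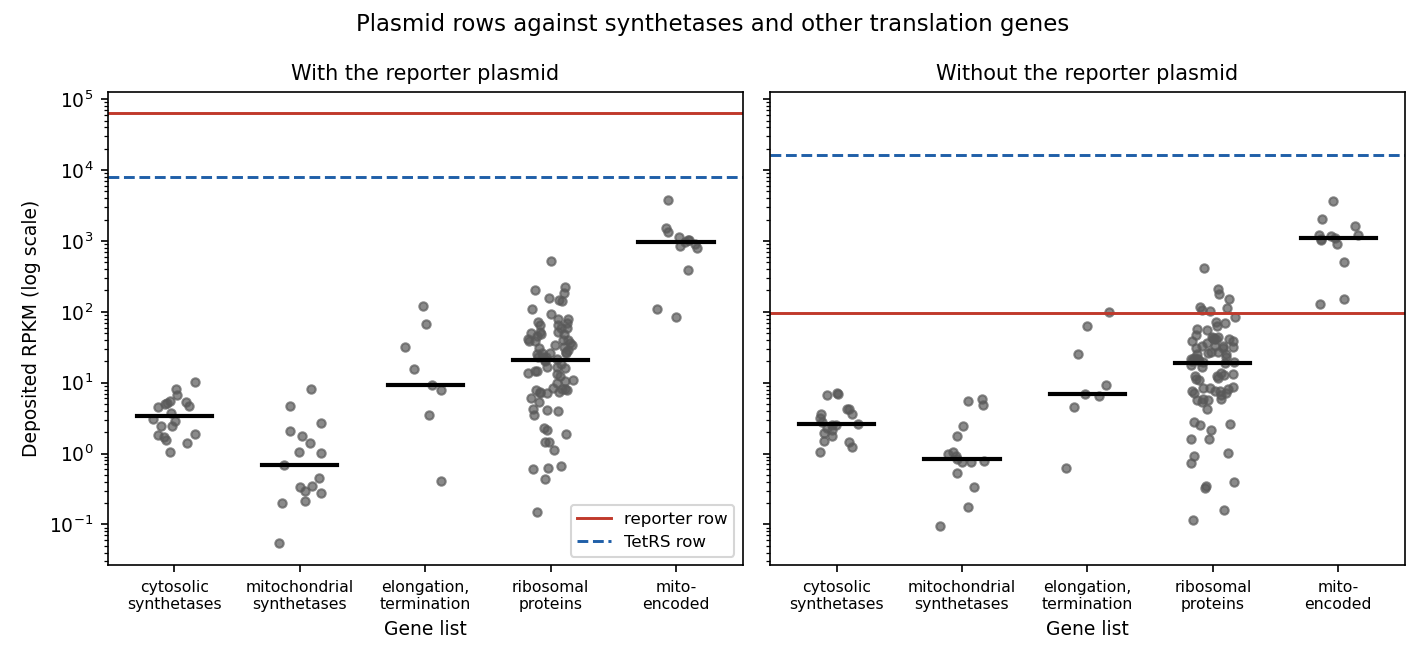
Deposited RPKM (log scale) of the members of 5 gene lists in each library, with 1 point per gene with a count, thick lines at the median over all members, and the plasmid rows as horizontal lines. TetRS lies above every point in both panels, the closest being MT-CO2; the highest cytosolic synthetase, SARS1, is at 10.2 and 7.05 RPKM.

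Serine and selenocysteine handling is the other endogenous path around serine tRNAs, since selenocysteine is built on a tRNA first loaded with serine. Its 9 genes came to 370 counts with the reporter and to 305 without it. SEPHS2, which makes the selenium donor, was the highest at 25.9 and 21.1 RPKM, with a log2 ratio of 0.22. SEPSECS, which forms the selenocysteine on that tRNA, had 5 counts and 0. SARS2, the mitochondrial seryl synthetase, had 3 and 8 counts, too few to show a difference at this depth. Only SARS1 and SEPHS2 reached a summed count of 100, and neither was counted as changed, where 2.83% of measured coding genes were counted as higher and 0.566% as lower.

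Elongation and termination factors are among the more strongly translated messages of a growing cell. All 9 lay below TetRS in both libraries and below the reporter where its plasmid was given, as did all 19994 coding genes. EEF2, the translocase, was the highest at 122 and 98.9 RPKM (GRCh38, chromosome 19, 3976056 to 3985463). EEF1A1, which delivers charged tRNAs to the ribosome, was at 68.0 and 63.8 RPKM, on a listed length of 10063 bases. The release factor genes ETF1 and GSPT1 were at 7.82 and 3.50 RPKM with the reporter and at 7.02 and 4.54 RPKM without it. EEF1G was listed at 0 in both libraries, and whether that 0 is the level of its message was not tested. The 9 genes had 4027 and 3406 counts in total, so that TetRS had 7.52 and 17.5 times their sum. None of the 7 measured members was counted as higher or lower, where the shares over all measured coding genes were 2.83% and 0.566%, and their median log2 ratio was 0.22.

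Among the nuclear lists compared here, the 88 cytosolic ribosomal protein genes were the closest to TetRS by total. They came to 27415 counts with the reporter and to 22717 without it, against 30286 and 59723 of TetRS. Their median level was 20.6 and 19.0 RPKM. The counts of TetRS were therefore 1.10 times those of the whole list in the first library (1.09 to 1.12) and 2.63 times in the second (2.59 to 2.67). The reporter had 9.92 times the count of this list where its plasmid was given. Many ribosomal protein genes have processed pseudogene copies that can take part of their reads.

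The 13 mitochondrially encoded proteins had 36084 and 40556 counts, more than TetRS with the reporter and fewer than TetRS without it. GAPDH, a glycolytic enzyme gene, and ACTB, of cytoplasmic actin, were at 36.2 and 15.2 RPKM with the reporter and at 35.5 and 13.7 RPKM without it.

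Genes that sense or act on foreign nucleic acid were included because both cultures carried transfected DNA. Of the 22 symbols, 21 genes were in the table (RIGI under its older name DDX58), and came to 241 counts with the reporter and 284 without it. ZC3HAV1, an antiviral RNA-binding protein, was the highest at 2.63 and 3.55 RPKM. The DNA sensor CGAS had 1 count and 0, and its adaptor STING1 had 4 and 1. Only ZC3HAV1 and ADAR, an RNA editing enzyme, reached a summed count of 100. Their log2 ratios were -0.51 and -0.32, and neither was counted as lower, where 0.566% of measured coding genes were.

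The difference between the libraries was measured on counts scaled by the TMM method, and a row was counted as changed where it differed at least 2-fold and the interval excluded 0. In the 1060 coding genes with 100 or more counts over both libraries, 2.83% were counted as higher with the reporter and 0.566% as lower, which is 30 and 6 genes. Scaled to all counts these numbers were 190 and 0, and with no minimum of counts 697 and 810. Both plasmid rows were counted, the reporter as higher and TetRS as lower. The reporter's log2 ratio was 9.28 (9.14 to 9.43), or 622-fold. The highest coding gene was CCND1, which encodes cyclin D1, at 2.13 or 4.38-fold, followed by COX6C, a cytochrome c oxidase subunit, at 1.52 and BCCIP at 1.38. No coding gene was near the reporter's ratio.

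TetRS was 2.16-fold higher without the reporter (2.13 to 2.19), which is a log2 ratio of -1.11 with the reporter over without it. The coding genes with the most similar ratios were MFN2, a mitochondrial fusion gene, at -1.11, XRCC2, of DNA repair, at -1.13 and SAP130, of a histone deacetylase complex, at -1.15. Likeness here is only the difference in log2 ratio over the 2 libraries, and each of these genes rested on few reads. MFN2 had 41 and 81 counts, XRCC2 had 42 and 84, and SAP130 had 40 and 81. The interval of MFN2 was wide for that reason, at -1.69 to -0.56, while that of TetRS was -1.13 to -1.09. All 6 coding genes with a ratio below that of TetRS had a summed count of at most 354, against 90009 of TetRS. Among the 50 coding genes with at least 1000 counts, the lowest ratio was -0.61, of MT-CYB. The labels give no amount of plasmid per dish, so the presence of the reporter and a difference in transfection between the dishes cannot be told apart.

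The size of this difference rests on what the libraries are scaled to. Scaled to protein-coding counts, the log2 ratio of TetRS was -1.15, and by DESeq2 size factors it was -1.04. Scaled to all counts it was -0.66, and with both plasmid rows left out of the total it was -0.50, so that TetRS then no longer reached 2-fold. TetRS was lower with the reporter under every scaling tried. The miRNA genes, which are not messages, took 12.5% of counts with the reporter and 30.4% without it. That difference moves with the total-count scaling, and its part in the result was not tested. Shares within each library carry the same choice: TetRS had 8.75% as many counts as all coding genes with the reporter and 19.4% without it, but 1.20% and 1.90% of all counts.

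**Figure D3:**
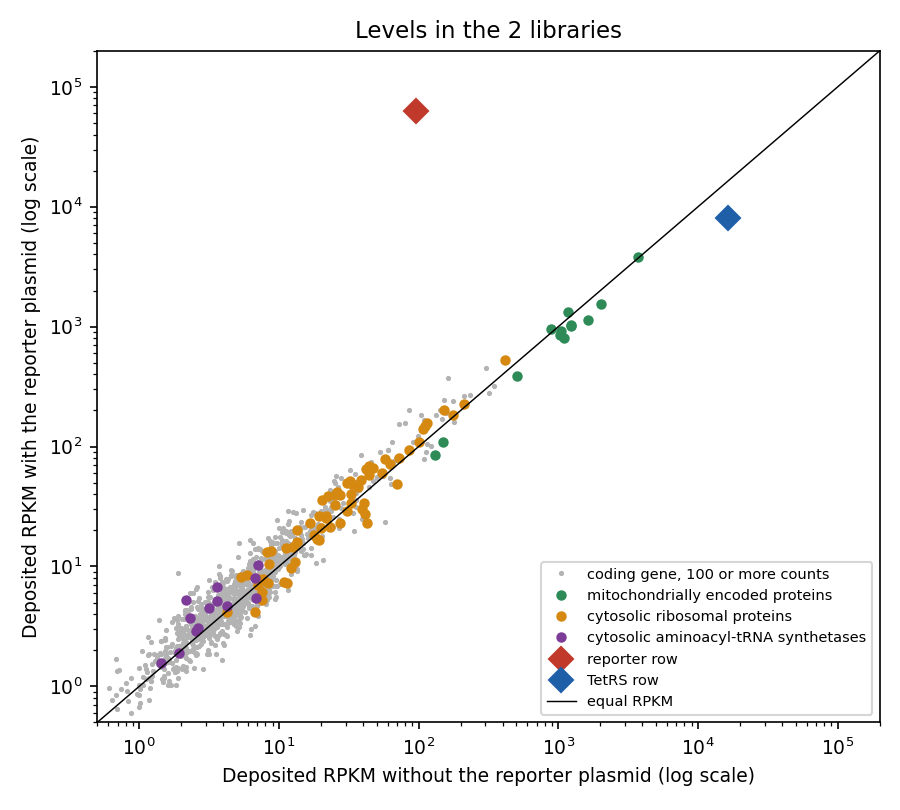
Deposited RPKM without the reporter plasmid (horizontal) and with it (vertical), both on log scales, for coding genes with 100 or more counts over both libraries, 3 gene lists and the plasmid rows; the line marks equal RPKM. The reporter lies far above the line at 96.0 and 62859.8 RPKM, and TetRS below it at 16526 and 8058 RPKM.

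Both plasmid rows together were higher in the culture with both plasmids, although TetRS was lower. They held 302129 counts with the reporter, or 11.99% of the library, and 60122 without it, or 1.91%. Within coding and plasmid counts they held 46.6% and 16.3%, so that the endogenous coding genes held 53.4% and 83.7%. Divided by listed length, the plasmid rows held 62.3% and 29.0% of that pool. In the culture that received both, the reporter had 7.80 times the counts of TetRS per length (7.71 to 7.89). The share of TetRS in the length-scaled pool was 7.08% with the reporter and 28.9% without it. That of mitochondrially encoded genes was 12.3% and 27.7%, and that of cytosolic ribosomal proteins 3.13% and 5.25%. These shares fall for every other class when the reporter fills part of the pool, so they do not by themselves give the change of a class.

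**Figure D4:**
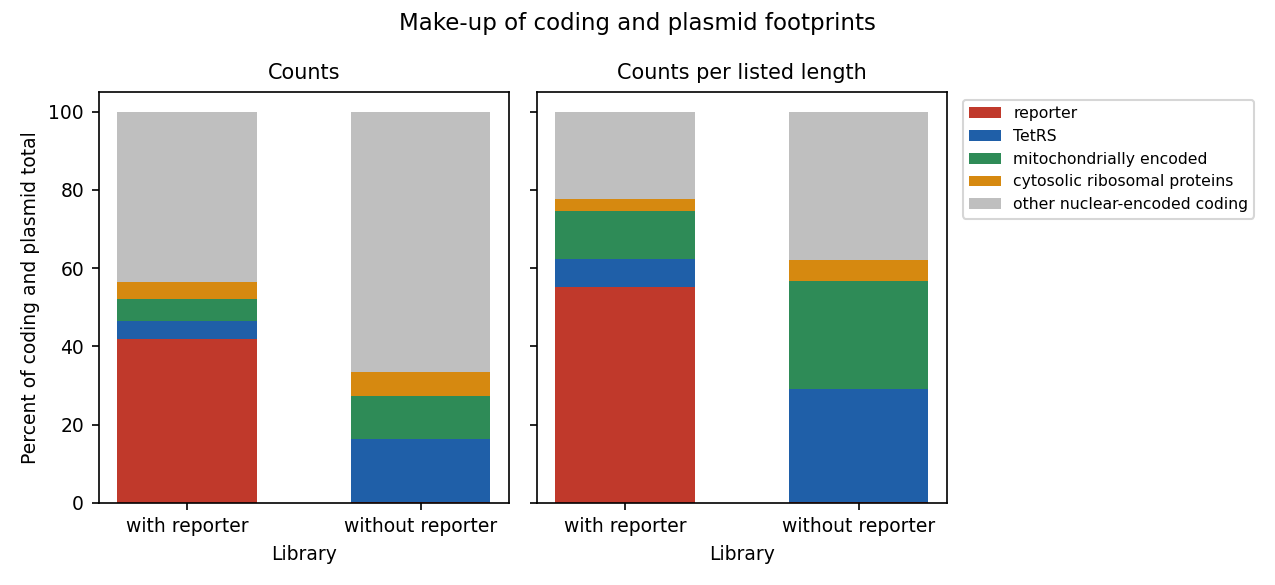
Make-up of the coding and plasmid pool in each library as percent of counts (left) and of counts per listed length (right), stacked by class. The reporter holds 41.9% and 55.2% with its plasmid, and TetRS holds 16.2% and 28.9% without it.

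In the library from cells not given the reporter, 399 counts fell on its row, or 0.0127% of its counts (0.0114 to 0.0140%). A count of 0 would allow up to 3, so the signal was above counting error. It came to 0.147% of the reporter's count in the other library (0.133 to 0.162%). Its deposited RPKM was 96.0, and only 42 of the 19994 coding genes lay above that. This places the row between EEF2 at 98.9 RPKM and JUN, an immediate early transcription factor gene, at 91.2 RPKM. RPL39, of the large ribosomal subunit, and the histone gene H2BC21 came next above, at 101 and 103 RPKM. RPS14 and RCC1, the exchange factor of Ran, came next below, at 85.1 and 85.0 RPKM. The loci of EEF2, RPL39 and RCC1 hold a small RNA gene that can share reads with them, and those of JUN, H2BC21 and RPS14 hold none of the screened classes.

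The 42 coding genes above this level, grouped after their values were seen, were all 13 mitochondrially encoded genes, 13 histone genes, 8 cytosolic ribosomal protein genes and 8 others. The others included CCT7 and CCT5, of the cytosolic chaperonin, and the ferritin gene FTL. No synthetase gene was among them, but only 0.21% of all coding genes were, so this says nothing particular about synthetases. At 13.6 times SARS1, the reporter in the library without its plasmid was still above every cytosolic synthetase. With the listed lengths of nuclear-encoded genes divided by 3, 101 coding genes lay above it. The source of these 399 counts was not tested, and a fold against this library rests on them.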

How the data were processed

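Ribosome profiling libraries of 2 HEK293T cultures, 1 per group, were grouped by their titles. The deposited count table holds whole-number counts for 61554 rows. Per the submitters' processing notes, TopHat2 2.0.12, HTSeq 0.9.1, GRCh37 and hg19 were used, in roles those notes leave unstated. Strand handling and multiple matches are not given in the sources used here. Coordinates are nevertheless those of GRCh38: of 19076 coding symbols shared with RefSeq's gene table (GRCh38.p14), 19073 lay on the same locus.

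A second table holds RPKM values deposited by the authors. Each equalled the count over the listed length and over 1 library size, 2873483 with the reporter and 2762965 without it. These sizes matched DESeq2 size factors times the geometric mean of the totals. Levels are these RPKM values. Differences are log2 ratios of counts scaled by edgeR 4.0.16 (TMM over all rows, R 4.3.3), with exact intervals at 95%. The comparison set was the 1060 coding genes with 100 or more counts over both libraries. The ratio and its interval were run on simulated counts with counting error only. Both simulated libraries shared 1 profile apart from chosen coding genes, without the reporter and miRNA differences of the real libraries. That run therefore did not test the choice of scaling. Python 3.11.15, scipy 1.17.1 and DESeq2 1.42.0 served for intervals and alternatives.

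Named genes were, in each library, the 5 highest coding genes by RPKM, the 3 nearest above and below each plasmid row, the 3 nearest in ratio, the extremes of each list and 4 fixed genes; others were named after their values were seen, and 1 gene that the rule takes is left out of the text. Members and lists were chosen with earlier results of these data known. Plasmid and coding sequences were not used here.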

Additional observations from a re-analysis of the deposited data

Results flagged for a closer look

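Cells that by their label were not given the reporter plasmid still yielded 399 counts on its row. A count of 0 would allow 3, and the value was 133 times that.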

How the results depend on the processing

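The 13 results were recomputed under 75 combinations of result and setting, of which 46 kept the call, stayed within the counting interval or kept the count within 1.5 times, and none changed direction. The log2 ratio of the reporter ran from 9.24 to 9.89 over all scalings. That of TetRS was -0.66 under total counts and -0.50 with both plasmid rows left out of the totals, the latter chosen after seeing the data, and relative to the median coding gene it was -1.17 at a minimum of 20 counts and -1.25 at 500 in place of -1.22. Coding genes counted as higher numbered 46 by DESeq2 size factors, 190 by total counts and 286 without the plasmid rows, in place of 30, and those counted as lower numbered 0 under both totals, in place of 6. With no minimum 697 were higher and 810 lower, at 50 counts 142 and 93, and at 200 counts 7 and 1. The length-scaled share of the reporter, 55.2%, was 41.9% by counts, 58.1% without genes whose locus holds a small RNA, 62.9% among nuclear-encoded genes and 36.6% with nuclear lengths divided by 3. That of TetRS with the reporter, 7.08%, was 4.67%, 7.45%, 8.07% and 4.69% in the same order, and without the reporter, 28.9%, it was 16.2%, 31.5%, 39.9% and 15.5%. The reporter was 8.98 times TetRS by counts. The division by 3 was added after seeing the data, and it moved the number of coding genes above the reporter in the library without it from 42 to 101. The number above the reporter with its plasmid, and above TetRS in both libraries, was 0 under all settings run. Coding lengths from a protein table were planned and not run, as that table was not used here. No paired analysis was possible because each group had 1 library. Depth limits the calls, as only 1060 of 19994 coding genes had 100 counts over both libraries.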
